A study of Mus musculus with 4 samples.

Results

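The pluripotency factors described here are 10 proteins that keep embryonic stem cells undifferentiated or mark that state: POU5F1, SOX2, NANOG, ESRRB, TFCP2L1, KLF4, ZFP42, SALL4, LIN28A and DPPA3. They were picked by name, as the rows of the expression tables that carry their mouse gene symbols. Of the 10, 9 had a row in each of the 4 sections, among 22218 genes listed in any section and 19783 listed in all of them. Sox2 had no row under its symbol in the tables used here, and its own level was not analysed here.

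Spatial transcriptomes had been taken from cryosections of mouse brain organoids, balls of nervous tissue grown in suspension from embryonic stem cells. All organoids came from a CARLIN/Cas9 stem cell line, so all groups carry that lineage recorder and nuclease, and all were 3 months old. From day 9 they were kept in maturation medium with either 2% B27 supplement containing vitamin A (VitaminA), 1 µM all-trans retinoic acid (ATRA), 1 µM of the RAR-alpha agonist BMS753, or the RAR-gamma and RAR-beta agonists BMS961 and BMS641 together at 0.1 µM (BMS961+BMS641). The doses of the ligands differ, and each group is 1 section, so no difference below has a replicate check and no p-value is given. Several organoids share a frozen mold, the number under each section is not given in the sources used here, and a spot of the array can hold several cells or part of a cell.

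In mouse embryonic stem cells POU5F1, SOX2 and NANOG bind many of the same enhancers and sustain each other's transcription. ESRRB, TFCP2L1, KLF4 and ZFP42 belong to the naive state, which depends on LIF and STAT3 signalling, and SALL4, LIN28A and DPPA3 are shared with early embryo and germ cells. Retinoic acid is a classical agent for leaving this state: its signalling silences Pou5f1 in differentiating stem cells, in part through other nuclear receptors, and the network is largely shut down before neurons form. Some of these genes are also used outside the stem cell, for example Esrrb in the inner ear and retina and Klf4 in epithelia.

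The promoters of Pou5f1, Nanog and Zfp42 are shown because they carry short motifs of the network or of nuclear receptors. The level of Zfp42 was lower outside the VitaminA section, while the levels of Pou5f1 and Nanog differed little between sections. Each line gives the 250 bases before the first listed gene start, 5′ to 3′ on the strand of the gene, from RefSeq on build GRCm38.p6: chr17:35505782-35506031 on the plus strand for Pou5f1, chr6:122707239-122707488 on the plus strand for Nanog, and chr8:43307010-43307259 on the minus strand for Zfp42. Capitals mark matches of the octamer motif TTTGCAT read by POU factors, the SOX motif ACAATG (with the base between them in Nanog) and the nuclear receptor half-site AGGTCA, each searched on both strands.
Pou5f1: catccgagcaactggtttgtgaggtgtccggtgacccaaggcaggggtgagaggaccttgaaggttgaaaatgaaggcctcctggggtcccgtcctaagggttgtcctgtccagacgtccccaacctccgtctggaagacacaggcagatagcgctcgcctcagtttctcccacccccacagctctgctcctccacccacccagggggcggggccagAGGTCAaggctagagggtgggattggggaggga
Nanog: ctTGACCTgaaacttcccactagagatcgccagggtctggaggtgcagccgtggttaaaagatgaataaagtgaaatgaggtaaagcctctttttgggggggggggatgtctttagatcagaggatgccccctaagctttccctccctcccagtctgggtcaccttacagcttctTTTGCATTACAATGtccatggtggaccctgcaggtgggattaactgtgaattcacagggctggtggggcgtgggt
Zfp42: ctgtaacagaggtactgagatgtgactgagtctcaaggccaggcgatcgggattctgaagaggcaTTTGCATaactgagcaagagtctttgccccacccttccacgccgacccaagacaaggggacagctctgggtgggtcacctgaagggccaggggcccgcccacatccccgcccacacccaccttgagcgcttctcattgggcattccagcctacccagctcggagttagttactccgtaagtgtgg
In the Nanog window the octamer and SOX motifs lie together as TTTGCATTACAATG, starting 75 bases before the gene start. That composite, TTTGCATNACAATG, was found in 2 of 32851 promoter windows of the same length (0.00609%). Both belong to Nanog, and they overlap and hold the same site. The Nanog window also holds AGGTCA on the other strand, 248 bases before the start. The Pou5f1 window holds AGGTCA starting 33 bases before the gene start, a motif found in 14.0% of all windows. The window of another listed Pou5f1 start, chr17:35508557-35508806, holds no AGGTCA. The Sox2 window, not shown, holds TTTGCAT and AGGTCA, both on the other strand. The Zfp42 window holds TTTGCAT starting 185 bases before the gene start, against 4.12% of all windows. SOX motifs alone occurred in 10.7% of windows. A match is a description of these letters and not a binding site. RefSeq promoter entries were matched for 8 of the 10 factors.

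The deposited values are a quantile-normalised signal per gene and spot, and each section was normalised on its own, so levels set side by side across sections rest on that scaling. A level here is the mean signal of a gene over all spots of a section, in ppm of the section's summed signal. Within a spot the signals fall into tied classes. The lowest positive class runs on from the zeros in the order of the table rows in 99.7% to 99.8% of the spots of a section, so a gene is called seen in a spot only above that class. The sections held 552 (VitaminA), 593 (ATRA), 469 (BMS753) and 365 (BMS961+BMS641) spots, with a median of 4659, 3388, 3330 and 4462 genes seen per spot in that order. The share of spots in which a gene is seen followed the length of its genomic span closely across genes (Spearman 0.80 to 0.84 within a section), so levels are compared between genes only per kilobase or beside genes of like span.

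The tissue label was checked on marker lists, within which the shares of spots varied widely. The 7 neuron markers were seen in a median of 51.6%, 30.4%, 48.2% and 41.1% of VitaminA, ATRA, BMS753 and BMS961+BMS641 spots. Among them Rbfox3 and Syt1, whose genes span 422 and 513 kb, were seen in at least 87.5% of the spots of every section, and the short gene Tubb3 in 15.7% to 27.7%. The 5 astroglia markers ranged from 0.843% (S100b in ATRA) to 46.8% (Aldh1l1 in BMS961+BMS641), and Gfap was seen in at most 6.34%. Of the 6 progenitor markers, Pax6 was seen in 23.4% to 38.4% and Sox9 in 9.61% to 38.4% of the spots of a section, while Hes5 and Vim were seen in at most 3.08% and 2.72%. Nes was seen in 3.71% to 8.88%. Fabp7, which had no row in BMS753, was seen in 0.337% to 10.7% of the spots of the other sections.

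**Figure D1:**
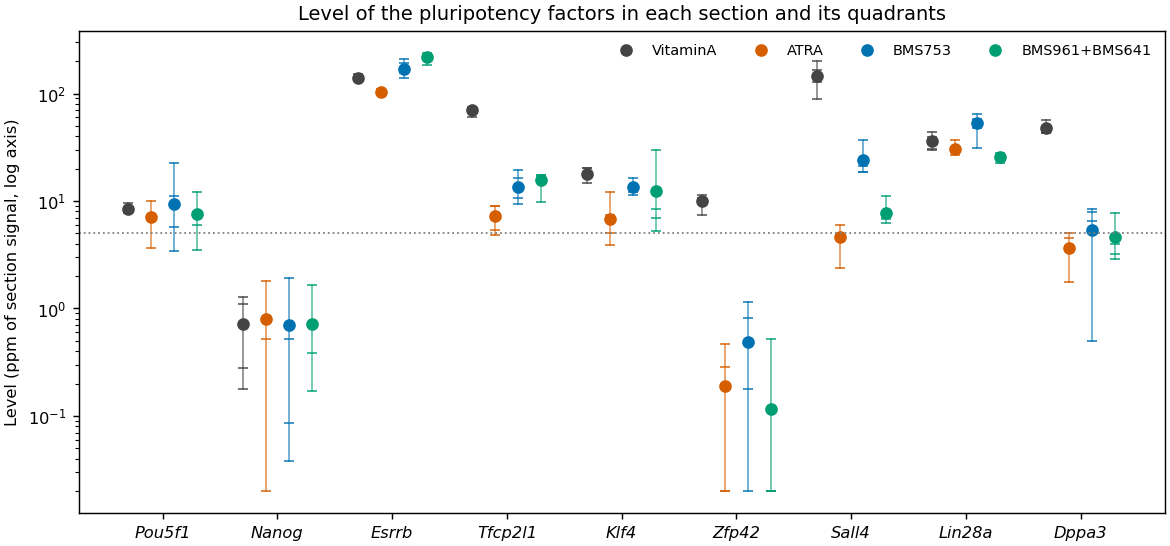
Level of each factor in ppm of the section's signal (log axis), with large dots for sections, ticks for the 4 quadrants of each section and lines spanning them; quadrants at 0 are drawn at the lower limit and the dotted line is the 5 ppm filter. Tfcp2l1, Zfp42, Sall4 and Dppa3 stand apart in the VitaminA section, while the quadrants of Pou5f1 and Nanog overlap between all sections.

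Sall4, Dppa3, Tfcp2l1 and Zfp42 were at their highest level in the VitaminA section and at least 2-fold lower, relative to all genes, in each of the 3 sections that had received a retinoid ligand. Pou5f1, Lin28a and Esrrb stayed within 2-fold of VitaminA in all 3, Klf4 did too on this scale, and Nanog was at the limit of what was seen in every section. The summed level of the 9 factors was 475 ppm in VitaminA and 165, 289 and 292 ppm in ATRA, BMS753 and BMS961+BMS641. In spots that hold several cells, fewer cells of a type and less RNA per cell cannot be told apart.

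Sall4 encodes a zinc finger factor that binds with POU5F1 and NANOG in stem cells. Its level was 144 ppm in the VitaminA section, 4.58 ppm under ATRA, 24.1 ppm under BMS753 and 7.72 ppm under BMS961+BMS641. It was seen in 57.2% of VitaminA spots (95% exact binomial interval 53.0% to 61.4%, covering counting error over spots only), 9.95% of ATRA, 21.7% of BMS753 and 13.2% of BMS961+BMS641 spots. VitaminA is high, ATRA low, and the quadrants of VitaminA, from 88.4 to 199 ppm, lie above every quadrant of the other sections, of which the highest is 36.6 ppm in BMS753. The signal in VitaminA was also stronger spot by spot: 23.6% of its spots had Sall4 in the fourth class or higher, up to class 26, against none under ATRA, 1.07% under BMS753 and 0.822% under the pair. Relative to all genes, Sall4 was lower than in VitaminA by 20.7-fold under ATRA, 7.17-fold under BMS753 and 14.0-fold under the pair of ligands, on the scale of level plus 1 ppm.

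Dppa3 encodes STELLA, a maternal and germ cell protein that protects DNA methylation in the early embryo. Its level was 47.9 ppm under VitaminA, 3.65 ppm under ATRA, 5.38 ppm under BMS753 and 4.58 ppm under BMS961+BMS641. The shares of spots with Dppa3 were 55.6%, 7.93%, 10.0% and 14.5% in the same order. VitaminA alone is high and the ligand sections lie close together, with quadrants from 43.1 to 57.1 ppm in VitaminA and none above 8.38 ppm elsewhere. Relative to all genes it was 8.36-fold, 9.48-fold and 7.34-fold lower in ATRA, BMS753 and BMS961+BMS641. Per kilobase of span it was the highest of the 9 factors in VitaminA, at 12.4 ppm, ahead of Sall4 at 7.64 ppm. The reference lists 1 Dppa3 pseudogene, and how reads shared with it were counted is not given in the sources used here.

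Tfcp2l1, a naive-state factor downstream of LIF and STAT3, stood at 69.8 ppm in VitaminA, against 7.23 ppm in ATRA, 13.4 ppm in BMS753 and 15.7 ppm with BMS961+BMS641. Spots with Tfcp2l1 made up 59.4%, 9.61%, 15.6% and 23.8% of the sections. In VitaminA it lay well above the median share of 24.3% for genes of like span, and in the ligand sections it lay below their medians of 18.0%, 20.0% and 26.0%. Relative to all genes it was 6.84-fold, 6.10-fold and 3.56-fold lower in ATRA, BMS753 and BMS961+BMS641, and the quadrants did not overlap with those of VitaminA.

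Zfp42, also called Rex1, is a widely used marker of undifferentiated mouse stem cells. Its level was 10.0 ppm in the VitaminA section, 0.190 ppm under ATRA, 0.485 ppm under BMS753 and 0.117 ppm under BMS961+BMS641. It was seen in 112 VitaminA spots (20.3%), and in only 3 ATRA spots, 7 BMS753 spots and 4 BMS961+BMS641 spots. The ligand sections are near the floor of the measurement, and genes of like span were seen more often there, in a median of 4.55%, 5.12% and 6.71% of spots. Relative to all genes, Zfp42 was lower by 2.88, 3.20 and 3.05 on the log2 scale in ATRA, BMS753 and BMS961+BMS641. The added 1 ppm is larger than the ligand levels, so these values understate the ratio of the levels. The reference lists 1 Zfp42 pseudogene, with the same limit as for Dppa3.

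**Figure D2:**
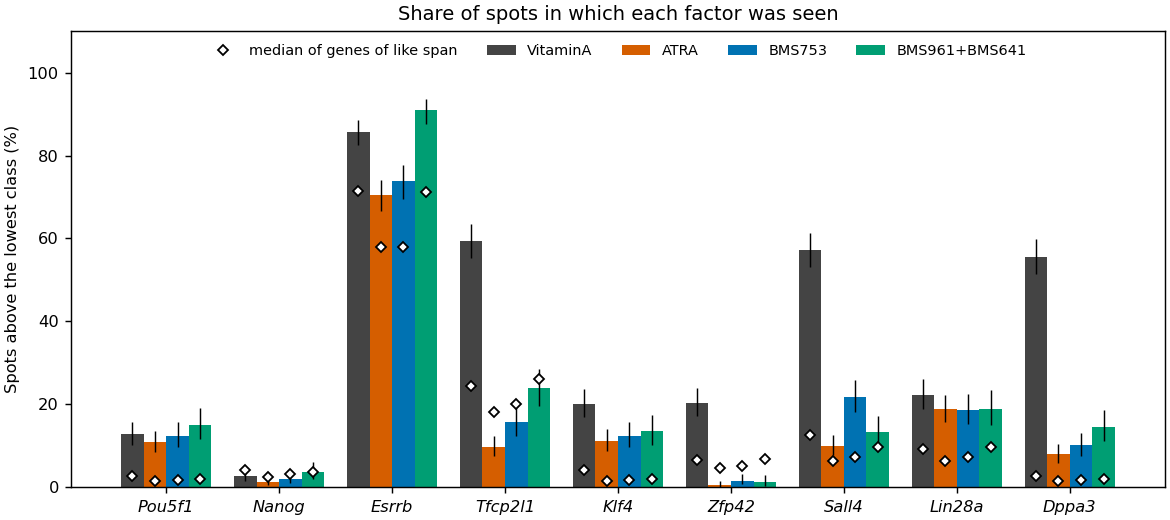
Percent of the spots of each section in which each factor was seen, above the lowest class, as bars from 0. Lines are 95% exact binomial intervals, covering counting error over spots only. Open diamonds give the median of genes in the same decile of genomic span. Sall4, Dppa3 and Tfcp2l1 were seen in 55.6% to 59.4% of VitaminA spots and in at most 23.8% of the spots of a ligand section.

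Pou5f1 encodes OCT4, the POU factor at the core of the network. Its level was 8.42 ppm under VitaminA, 7.06 ppm under ATRA, 9.46 ppm under BMS753 and 7.49 ppm under BMS961+BMS641. It was seen in 12.7%, 10.8%, 12.4% and 15.1% of spots. The binomial intervals overlap in all 4 sections, but they cover counting error over spots only, and spots of a section are not replicates. Its quadrants overlap between all sections, and the log2 ratios to VitaminA relative to all genes were 0.11, -0.16 and 0.11 in ATRA, BMS753 and BMS961+BMS641. In each section Pou5f1 was nevertheless seen more often than most genes of like span, whose median was 1.35% to 2.54% of spots. The reference lists 5 Pou5f1 pseudogenes, and how reads of near-identical copies were counted is not given in the sources used here.

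Nanog, the homeobox factor of the core network, was near 0 throughout. Its level was 0.717 ppm in VitaminA, against 0.797 ppm in ATRA, 0.703 ppm in BMS753 and 0.710 ppm with BMS961+BMS641. It was seen in 14, 7, 9 and 13 spots, or 2.54%, 1.18%, 1.92% and 3.56% of each section. That is at or below the median of genes of like span, 2.36% to 4.17% of spots, and under the 5 ppm set for a comparison, so no ratio was read from it. The reference lists 2 Nanog pseudogenes.

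Sox2 itself was not analysed here, but the long RNA gene Sox2ot, whose span contains Sox2, was listed. Its level was 163 ppm in the VitaminA section, 211 ppm under ATRA, 227 ppm under BMS753 and 158 ppm under BMS961+BMS641, and it was seen in 79.2%, 73.2%, 60.8% and 71.5% of spots. Whether reads of Sox2 were counted there was not tested.

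Esrrb, an orphan nuclear receptor that can stand in for NANOG in stem cells, was the factor seen most often in every section. Its level was 140 ppm under VitaminA, 104 ppm under ATRA, 169 ppm under BMS753 and 218 ppm under BMS961+BMS641. The shares of spots with it were 85.7%, 70.5%, 73.8% and 91.0%. BMS961+BMS641 is the highest section and ATRA the lowest. The gene spans 161 kb, and genes of like span were seen in a median of 71.6%, 57.8%, 58.0% and 71.2% of spots, so per kilobase its level, 0.65 to 1.36 ppm, was below that of Pou5f1 (1.49 to 1.99 ppm) in every section. Relative to all genes its log2 ratio to VitaminA was -0.10 under ATRA, -0.04 under BMS753 and 0.89 under the pair. With the lowest class set to 0 the last value was 1.16, past 2-fold, as were 17.5% of all genes in that direction under that setting.

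Klf4, one of the factors used to reprogram cells, stood at 18.0 ppm in VitaminA, against 6.82 ppm in ATRA, 13.6 ppm in BMS753 and 12.5 ppm with BMS961+BMS641. The shares of spots with it were 20.1%, 11.1%, 12.4% and 13.4%. VitaminA had the highest value, but relative to all genes no section was 2-fold apart: the log2 ratios were -0.95, -0.69 and -0.24. That reading depends on the centring for ATRA, whose log2 ratio not relative to all genes was -1.28, past 2-fold, and whose quadrants, 3.86 to 12.0 ppm, all lie below those of VitaminA. The quadrants of BMS961+BMS641 ranged from 5.31 to 30.0 ppm and overlapped with those of VitaminA, 14.8 to 20.3 ppm. Quadrants apart were common: of 2161 genes lower by 2-fold or more in ATRA, 2130 had them. The shares of all genes past 2-fold without centring, or with quadrants apart at any fold, are not given here.

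Lin28a, an RNA-binding protein that blocks maturation of let-7 microRNAs, stood at 35.9 ppm in the VitaminA section, 30.7 ppm under ATRA, 53.0 ppm under BMS753 and 25.5 ppm under BMS961+BMS641. The shares of spots with Lin28a were 22.3%, 18.7%, 18.6% and 18.9%. Its row lies late in the tables, at about 90.0% of their length, and 28.9% to 53.9% of its signal came from the lowest class. With that class at 0 its levels were 27.05, 18.4, 31.5 and 12.6 ppm. The quadrants of BMS961+BMS641, 22.6 to 27.7 ppm, lie below those of VitaminA, 29.7 to 43.8 ppm, and of BMS753, 31.0 to 64.7 ppm, but with the lowest class at 0 they overlap with both. The log2 ratios to VitaminA relative to all genes were 0.11, 0.24 and -0.22, and 0.06, 0.07 and -0.53 with the lowest class at 0.

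**Figure D3:**
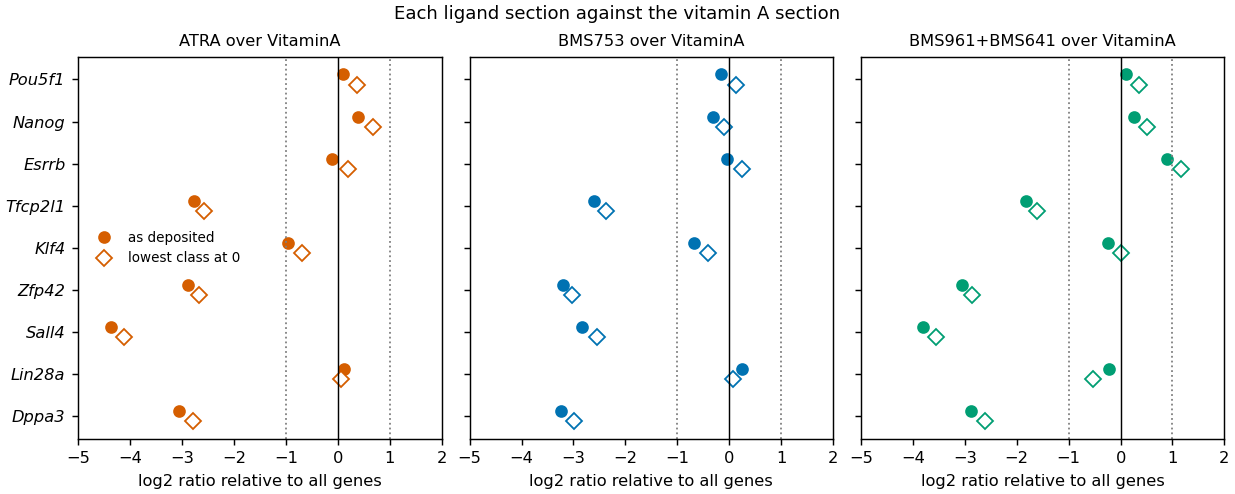
Log2 ratio of each factor in each ligand section over the VitaminA section, relative to the median of all genes compared, as deposited (filled) and with the lowest class set to 0 (open); dotted lines mark 2-fold, and Nanog is drawn although its levels were under 5 ppm. Tfcp2l1, Zfp42, Sall4 and Dppa3 lie left of the 2-fold line in all 3 panels.

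Set against all genes, 4 of the 8 factors that could be compared were lower than in VitaminA by 2-fold or more in ATRA, 4 of 8 in BMS753 and 4 of 8 in BMS961+BMS641, each time Sall4, Dppa3, Tfcp2l1 and Zfp42. Of all genes compared, 14.6%, 14.8% and 14.3% were lower by as much, and 14.4%, 12.1% and 13.9% also had all quadrants of one section below all of the other, as these 4 had. No factor was higher by 2-fold or more, against 12.1%, 9.06% and 13.6% of all genes. The median log2 ratio of the 8 factors relative to all genes was -1.86 under ATRA, -1.65 under BMS753 and -1.04 under the pair. The median over all genes, to which these are relative, was -0.33, 0.31 and -0.25. The 3 comparisons share the VitaminA section, so they are not independent of each other. Zfp42 in all 3, Dppa3 in ATRA and BMS961+BMS641, and Sall4 in ATRA passed the 5 ppm filter only through VitaminA. Such a gene can enter only with a lower level in the ligand section, so the counts and medians rest in part on that filter.

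The number of genes seen per spot differs between sections and was set beside the shares of spots. It is not read depth, which is unknown, and the part of depth in the section differences was not tested. In VitaminA the tercile of spots with the fewest genes seen, at a median of 3371 genes, still had Sall4 in 42.4%, Dppa3 in 42.4%, Tfcp2l1 in 40.8% and Zfp42 in 12.5% of spots. In ATRA the tercile with the most genes, at a median of 5009.5, had them in 18.2%, 15.2%, 16.7% and 0.505%. In BMS753 the richest tercile, at 5199 genes, had 31.2%, 14.6%, 24.8% and 3.82%, and in BMS961+BMS641, at 6322 genes, 20.5%, 26.2%, 35.2% and 0.820%. The poorest VitaminA tercile held each of the 4 genes more often than the richest tercile of every ligand section. This did not hold for Pou5f1, with 5.43% in the poorest VitaminA tercile against 23.2% to 26.2% in the richest ligand terciles. Between like terciles its shares lay closer. The richest VitaminA tercile had 20.1%, and the poorest ligand terciles had 2.02%, 5.13% and 5.74% in ATRA, BMS753 and BMS961+BMS641.

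Among the ligands, 1 of 7 factors differed by 2-fold or more between BMS753 and ATRA. Sall4 was 2.74-fold higher in BMS753, with quadrants from 18.5 to 36.6 ppm against 2.37 to 5.96 ppm, and 6.77% of all genes were higher by 2-fold or more, 6.57% with all quadrants apart as here; 14.6% were lower. Between BMS961+BMS641 and ATRA 1 of 6 factors passed 2-fold, Esrrb, 2.03-fold higher with the pair, against 14.9% of all genes higher and 12.3% lower. Between BMS961+BMS641 and BMS753 1 of 7 passed it, again Esrrb, at 2.01-fold against 15.7% of all genes higher and 6.41% lower, and its quadrants overlapped. Both Esrrb values sit at the threshold. In the share of spots relative to all genes the log2 ratios of Esrrb were -0.0702 and -0.0084. Sall4 was lower with the pair than in BMS753 by 0.88 on the log2 scale, with quadrants that did not overlap (share of all genes not given). With the lowest class at 0 that log2 ratio was -1.03, past 2-fold, as were 12.9% of all genes in that direction under that setting, and not relative to all genes it was -1.52. The median over the factors was 0.05, 0.67 and 0.45 in these 3 comparisons, which share sections, and the pair was given at a lower dose than ATRA and BMS753.

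**Figure D4:**
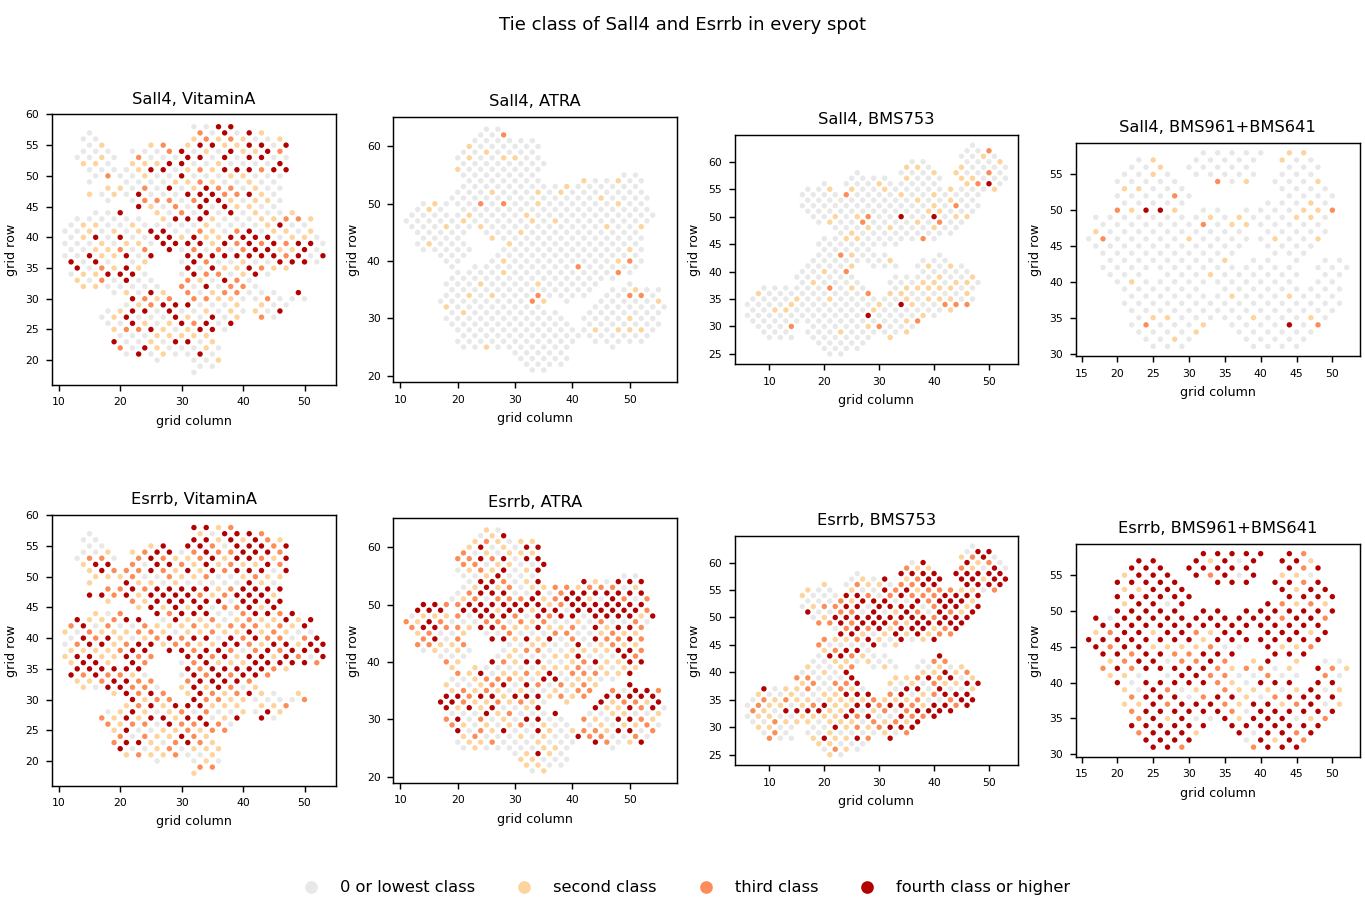
Tie class of Sall4 (top) and Esrrb (bottom) at every spot of the 4 sections, plotted by array column and row. Sall4 is spread over the whole VitaminA section and sparse in the ligand sections; Esrrb is seen nearly throughout all 4, with its highest classes along some array rows and columns.

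Within the sections the factors showed weak clustering, and their rank among all genes depended on the setting. Moran's I, which is near 0 for a scattered gene and near 1 for a clustered one, was between -0.03 and 0.17 for the 9 factors over 8 grid neighbours, with medians over all genes of 0.01 to 0.03. Esrrb had 0.10 under VitaminA, 0.07 under ATRA, 0.06 under BMS753 and 0.08 under BMS961+BMS641. Sall4 had 0.04 in VitaminA and at most 0.03 in a ligand section. The highest value, 0.17 for Lin28a in BMS753, is of a gene whose signal lies in large part in the lowest class. With that class at 0 it was 0.08, above 91.6% of all genes. Esrrb lay above 66.6% to 84.9% of all genes in a section, and above 85.5% to 99.2% with the lowest class at 0. Under that setting Klf4 ranged from above 3.19% of genes in ATRA to above 96.7% in VitaminA. Nanog ranged from 7.21% in VitaminA to 93.6% in BMS753.

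The lines of high Esrrb in the maps lie along array rows and columns in which many genes were seen. Array row 50 had the highest median number of genes seen of all rows of at least 10 spots in ATRA (7683.5 genes against 3310 in the other spots), BMS753 (7249 against 3266) and BMS961+BMS641 (9690 against 4360), but not in VitaminA (2876.5 against 4714.5). In that row Esrrb reached the fourth class or higher in 80.0% of ATRA spots against 24.1% elsewhere, in 80.0% against 30.0% in BMS753, in 100% against 63.0% in BMS961+BMS641, and in 0% against 36.6% in VitaminA. Of the 9 factors, 8, 9 and 9 were seen more often in that row than elsewhere in the 3 ligand sections, and 2 in VitaminA. Array column 34 ranked 1 or 2 of the columns in all 4 sections. Without the spots of both lines, a choice made after seeing the maps, the median log2 ratios of the factors were -1.80, -1.62 and -0.99 for ATRA, BMS753 and BMS961+BMS641 over VitaminA.

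At the rim of the tissue the picture was mixed. In VitaminA 8 of 9 factors were seen more often in interior than in edge spots, for Sall4 in 63.6% against 47.5%, but interior spots also had more genes seen (a median of 4941 against 4251). Counts of factors seen more often inside were 4 under ATRA, 6 under BMS753 and 2 under the pair, where edge spots had slightly more genes (4485 against 4402). The part of depth in these differences was not tested.

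**Figure D5:**
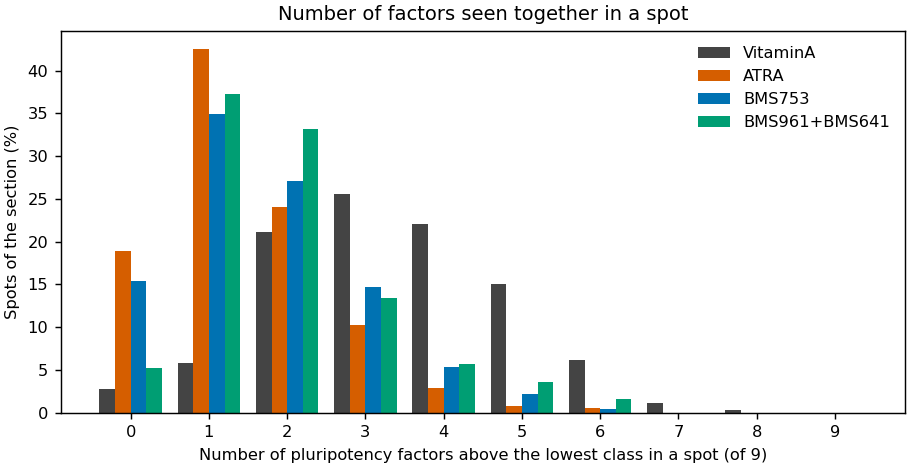
Percent of spots of each section by the number of the 9 factors seen in the spot. VitaminA peaks at 3 factors and reaches 8, the ligand sections peak at 1 and reach 6.

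Counted per spot, 70.3% of VitaminA spots had 3 or more of the 9 factors, against 14.5% under ATRA, 22.6% under BMS753 and 24.4% under the pair. Spots with none made up 2.72%, 18.9%, 15.4% and 5.21%. These counts take in Sall4, Dppa3 and Tfcp2l1, so they are not separate from the shares of spots of those genes. Genes seen per spot also differed, with medians of 4659, 3388, 3330 and 4462, and sets of genes of like span were not counted. The most seen together was 8, in 2 VitaminA spots, and 6 in each ligand section. Pairs of factors did not track each other over spots once the factor of the spot was divided out: the median Spearman correlation over 36 pairs was 0.03 in VitaminA and ATRA, 0.04 under BMS753 and 0.06 under the pair of ligands, and the range over all sections was -0.12 to 0.17. Many pairs were seen together in few spots, which limits the precision of their values. In VitaminA, Esrrb was seen with Tfcp2l1, Sall4 and Dppa3 in 290, 285 and 270 spots, with correlations of 0.03, 0.10 and -0.06. These values are descriptions only.

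Genes with the most similar placement were sought for the factors seen in at least 10% of the spots of every section, by the mean Spearman correlation over the 4 sections among 8262 genes. For Esrrb the closest were the row PIH1H3B at 0.18 and Kcnk10, a potassium channel gene, at 0.17. For Pou5f1 and Klf4 the closest genes, Itpa at 0.26, Supt5 at 0.25, Avil at 0.34 and Napb at 0.33, lie within 27 rows of them in the tables. With the lowest class at 0 these 4 gave way to Tada2a at 0.16 and Ccnb1 at 0.16 for Pou5f1 and to Mageb16 at 0.17 and 1700011C11Rik at 0.15 for Klf4. Lin28a was closest to A2ml1 at 0.46, and with the lowest class at 0 to Epb41l2 at 0.16.

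Other genes of the pluripotency network, from a list of 23, were not uniformly lower outside VitaminA. Of 14 compared, 1 was higher and 2 were lower by 2-fold or more in ATRA, none either way in BMS753, and 3 were higher and 2 lower in BMS961+BMS641. The list's median log2 ratios relative to all genes were 0.13, -0.16 and 0.55. Of all genes, 12.1%, 9.06% and 13.6% were higher than in VitaminA by 2-fold or more, and 14.6%, 14.8% and 14.3% were lower. The same shares stand beside the counts of the lists that follow. With so few genes per list, those counts are descriptions only. Klf5, which acts beside KLF4 in the naive state, was seen in 30.1% of VitaminA spots, 5.06% of ATRA, 15.4% of BMS753 and 13.4% of BMS961+BMS641 spots. Tet1, which oxidises methylated cytosine, was seen in 91.0% of BMS961+BMS641 spots and in 35.5%, 25.3% and 26.2% of VitaminA, ATRA and BMS753 spots. Tbx3, a T-box factor of the naive state, followed with 80.0% against 37.5%, 23.6% and 26.7%. The BMS961+BMS641 section thus had the highest share of spots with Tet1, Tbx3 and Esrrb while Sall4, Dppa3, Tfcp2l1 and Zfp42 were low in it.

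Upstream of the naive factors, Stat3, which carries the LIF signal to the nucleus, was seen in 39.9% of VitaminA spots, 96.0% of ATRA, 29.6% of BMS753 and 87.4% of BMS961+BMS641 spots. The LIF receptor gene Lifr was seen in 82.6%, 39.8%, 62.3% and 78.1%. Of the 6 genes of that list, 2 were higher and 2 lower by 2-fold or more in ATRA, 2 were lower in BMS753, and 1 was higher and 1 lower in BMS961+BMS641.

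In the LIN28 and let-7 list, Igf2bp1, an RNA-binding protein whose messenger is a let-7 target, also stood apart in the VitaminA section. Its level was 277 ppm in VitaminA, against 10.9 ppm in ATRA, 17.0 ppm in BMS753 and 52.2 ppm with BMS961+BMS641, and it was seen in 91.3%, 14.5%, 16.2% and 53.4% of spots. Lin28b, the paralog of Lin28a, was seen in 22.3%, 15.0%, 14.3% and 23.3%. Of the 8 genes, 2, 1 and 2 were lower than in VitaminA by 2-fold or more in ATRA, BMS753 and BMS961+BMS641, and none, none and 2 were higher.

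Among 7 repressors of Pou5f1, the de novo methyltransferase gene Dnmt3a was seen in 91.3% of VitaminA spots, 48.1% of ATRA, 66.3% of BMS753 and 59.7% of BMS961+BMS641 spots. Nr6a1, which encodes the receptor GCNF that silences Pou5f1 in differentiating stem cells, was seen in 67.6%, 54.6%, 64.2% and 66.8%. By 2-fold or more 1 of the 7 was higher and 3 were lower in ATRA, 2 were higher and 1 lower in BMS753, and 3 were lower in BMS961+BMS641.

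Because Dppa3 and Sall4 are also germ cell genes, germ cell genes were set beside them. The germ cell markers, all 4 listed, Ddx4, Dazl, Nanos3 and Dnd1 had summed levels of 50.4 ppm in the VitaminA section, 39.0 ppm under ATRA, 80.6 ppm under BMS753 and 35.0 ppm under BMS961+BMS641, and 24.9, 6.97, 31.9 and 9.29 ppm with the lowest class at 0. Ddx4, the helicase that defines the lineage, was seen in 18.8% of VitaminA, 4.55% of ATRA, 12.4% of BMS753 and 9.86% of BMS961+BMS641 spots, and Nanos3 in at most 1.45% of any section. Prdm1, a repressor needed to specify germ cells that other lineages also use, was seen in 72.8%, 44.0%, 22.8% and 35.3%. Of 7 germ cell genes compared, 1 was higher and 2 were lower than in VitaminA by 2-fold or more in ATRA, 1 and 1 in BMS753, and 1 and 2 in BMS961+BMS641. Dnd1, much of whose signal lies in the lowest class, made up most of the marker sum, with 68.4 ppm in BMS753 against 32.2 ppm in VitaminA. The other 3 markers were lower in BMS753 than in VitaminA: Ddx4 had 9.25 against 12.7 ppm, Dazl 2.92 against 5.05 ppm and Nanos3 0.0556 against 0.509 ppm. Other genes of the list were not highest in VitaminA. Tfap2c was seen in 13.0%, 11.0%, 36.2% and 18.4% of VitaminA, ATRA, BMS753 and BMS961+BMS641 spots, and Stra8 in 19.4%, 36.3%, 19.4% and 45.8%. The part of germ cells in the levels of Dppa3 and Sall4 was not tested.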

How the data were processed

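The authors deposited 1 table per section with a quantile-normalised signal per gene and spot, which the values bear out: every spot holds the same number of positive values as the others of its section. Build mm9 is named in the submitters' processing notes. Which aligner, counting and spot filter were used is not given in the sources, so read depth per section is unknown. Per the labels' protocols, sections lay on printed barcoded poly-T arrays.

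Levels are mean signal over spots in ppm of the section's sum. Log2 ratios used a pseudocount of 1 ppm, a filter of 5 ppm in one section of the pair or both, and the median of all genes as zero. A gene was called at 2-fold. Quadrants describe spread within a section and are not replicates. Groups came from the treatment in the sample labels, all 6 pairs were compared, and with 1 section per group no test was made. Named were the 10 factors, up to 2 genes of like pattern per factor and up to 3 genes per context list and comparison, those of at least 20 ppm with the largest ratios. Outside that rule, Lin28b, Mki67, Top2a, Cdk1, Bub1, Eomes, Foxa2, Pou3f1, Pou3f3, Sox3 and the cell type markers were named after their values were seen. Array row 50 and column 34 were chosen after the maps were seen. The factors and lists were chosen with earlier results of these data known. Genomic spans and promoters came from RefSeq tables on GRCm38.p6, matched by symbol and used for spans by length only. Alternatives were scaling, centring, pseudocount, filter, share of spots, lowest class at 0, the factor of the spot and the spots used. The steps were tested on simulated data. The work used scipy 1.17.1, pandas 2.3.3, matplotlib 3.10.9 and numpy 2.4.6 on Python 3.11.15.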

Additional observations from a re-analysis of the deposited data

How the results depend on the processing

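The lower levels of Sall4, Dppa3, Tfcp2l1 and Zfp42 in ATRA, BMS753 and BMS961+BMS641 than in VitaminA stayed past 2-fold under all 12 alternatives, and under all 11 that could be computed for Zfp42, which a filter of 20 ppm leaves out. Their smallest log2 differences were -1.27 for Zfp42 in ATRA, -1.02 for Sall4 in BMS753 and -1.24 for Tfcp2l1 in BMS961+BMS641.

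The median over the factors moved more than the spread between quadrants as follows, and each value over VitaminA stayed below 0. For ATRA over VitaminA, -1.86 became -1.31 with no scaling to ppm, -2.19 not relative to all genes, -0.98 with a pseudocount of 5 ppm, -0.94 with no filter, -2.85 with a filter of 20 ppm and -1.13 in the percent of spots. For BMS753 over VitaminA, -1.65 became -1.34 not relative to all genes, -1.13 with a pseudocount of 5 ppm, -0.57 with no filter, -2.68 with a filter of 20 ppm and -0.67 in the percent of spots. For BMS961+BMS641 over VitaminA, -1.04 became -1.29, -0.78, -0.22 and -1.85 under the first 4 of these. The filters change which factors are compared. For BMS753 over ATRA, 0.05 became 0.77 not relative to all genes. For BMS961+BMS641 over ATRA, 0.67 became 0.21 with no filter and -0.0635 in the percent of spots. For BMS961+BMS641 over BMS753, 0.45 became -0.19 not relative to all genes and -0.35 with a filter of 20 ppm. The cause was not tested.

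Esrrb changed sign in the percent of spots, at -0.0702 for BMS961+BMS641 over ATRA and -0.0084 over BMS753, and stayed past 2-fold under 9 and 5 of 12 alternatives. Sall4 in BMS753 over ATRA stayed past it under 11 of 12, with 0.94 in the percent of spots. Of the other values for single factors, 468 log2 ratios stayed within the spread between quadrants and 48 did not, and of Moran's I 83 did and 25 did not. No paired analysis was possible because the labels give no replicate numbers and each group is 1 section. Nanog in all sections and Zfp42 in the ligand sections were seen in few spots, which limits the precision of their values.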

Other observations

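Most early germ layer genes were rarely seen. The list of 8 had a median share of spots of 6.79% under VitaminA, 2.19% under ATRA, 2.35% under BMS753 and 5.07% under BMS961+BMS641. The endoderm and heart factor Gata4 was the most often seen in 3 of the sections, in 37.0% of VitaminA, 37.7% of BMS753 and 35.9% of BMS961+BMS641 spots, and it was seen in 24.6% of ATRA spots. Eomes was seen in at most 8.51% of the spots of any section and Foxa2 in at most 6.34%. Of 5 compared, none was higher than in VitaminA by 2-fold or more in any ligand section, and none, 2 and 1 were lower in ATRA, BMS753 and BMS961+BMS641. For this list and those below, the shares of all genes were 12.1%, 9.06% and 13.6% higher and 14.6%, 14.8% and 14.3% lower.

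Proliferation genes were sparse too. Mki67, a marker of cycling cells, was seen in 17.9% of VitaminA, 3.04% of ATRA, 7.46% of BMS753 and 5.48% of BMS961+BMS641 spots. Top2a was seen in 10.1%, 4.55%, 5.97% and 2.47%. Other genes of the list differed in pattern. In the same order Mcm2 was seen in 34.6%, 28.8%, 25.4% and 39.7%, and Ccnb1 in 28.6%, 20.4%, 12.6% and 25.2%. Cdk1 was seen in 9.78%, 4.55%, 23.0% and 9.86%, and Bub1 in 7.61%, 10.6%, 13.4% and 21.4%. The summed level of the 9 genes was 109.9, 70.8, 101.8 and 68.0 ppm. By 2-fold or more, 2 of 6 compared were lower than in VitaminA under ATRA, 1 of 7 was lower and 1 higher under BMS753, and 3 of 6 were lower and 1 higher under the pair.

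Among relatives of the factors that serve in neural tissue, some were seen most often in VitaminA and others were not. Pou3f1, a POU factor of neural cells, was seen in 13.4% of VitaminA spots and in 1.35%, 1.28% and 1.64% of ATRA, BMS753 and BMS961+BMS641 spots. Sox3, a SOXB1 relative of Sox2, was seen in 15.9% of VitaminA spots and in 3.71%, 4.26% and 4.66%. Pou3f3 was seen in 20.7% of VitaminA spots and in 6.58%, 5.54% and 9.32%. Sall3 was seen in 60.2% of ATRA spots, against 26.99%, 11.5% and 30.7% in VitaminA, BMS753 and BMS961+BMS641. Esrrg, the neural relative of Esrrb, was seen in 94.0% to 99.3% of spots in every section. Of 8 compared, 2 were higher and 2 lower than in VitaminA by 2-fold or more under ATRA, 3 were lower under BMS753 and 3 were lower under the pair.

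Among neural progenitor genes, none of 4 compared passed 2-fold against VitaminA in ATRA or BMS753. With BMS961+BMS641, 2 of 5 were higher, among them Sox9, seen in 38.4% of spots there and in 15.6%, 9.61% and 11.5% of VitaminA, ATRA and BMS753 spots.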
